A study of Mus musculus with 17 samples.

Results

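The nuclear-encoded respiratory chain genes were taken by symbol from the mouse brain libraries of a study of vindeburnol and its derivative VB-127. Rows whose names begin with Nduf followed by a, b, c, s or v and a digit, with Uqcr, with Cox and a digit between 4 and 8, or with Atp5 were kept, along with Sdha, Sdhb, Sdhc and Sdhd. Of 107 matching rows, 14 pseudogene names with "-ps" were left out, and 93 of the 78298 genes in the files remained. They comprised 43 genes of complex I, 4 of complex II, 8 of complex III, 19 of complex IV and 19 of complex V. Of these, 87 passed the filter for testing, at least 1 TPM in at least 5 libraries, and stood among 16153 genes tested. TPM is a transcript level corrected for transcript length and for the library total.

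Vindeburnol is a synthetic compound related to the vinca alkaloids, and VB-127 is labelled as a derivative of it. Male C57BL/6 mice received vindeburnol (5 libraries) or VB-127 (6 libraries), each at 20 mg/kg dissolved in water, by oral gavage once a day over 5 days, and untreated mice served as controls (6 libraries). Tissue labelled locus coeruleus, a small noradrenergic nucleus of the brainstem, was collected 24 h after treatment, and poly(A) RNA was sequenced. No group had gavage with water alone, so effects of a compound and of the gavage cannot be told apart in the comparisons with controls, and whether libraries are 1 per animal is not labelled, so every p-value measures the spread between samples.

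The respiratory chain passes electrons from NADH (complex I) and succinate (complex II) through ubiquinone, complex III, cytochrome c and complex IV to oxygen, and complex V uses the resulting proton gradient to make ATP. Most subunits are encoded in the nucleus and imported, while a few core subunits of complexes I, III, IV and V are encoded by mitochondrial DNA. Neurons depend on this pathway for the ATP that restores ion gradients after firing, and several complex IV subunits have paralogs used mainly in muscle, testis, lung or brown fat.

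The labelled tissue was checked against its markers. Dbh and Slc6a2, the noradrenaline-synthesis enzyme and transporter genes, had medians of 1.08 and 0.300 TPM over the 17 libraries. They were higher in 2 libraries, control replicates 1 and 6, with Dbh at 18.9 and 12.3 TPM and Slc6a2 at 8.94 and 4.15 TPM, against at most 2.57 and 0.929 TPM in the others. The summed level of 5 noradrenergic markers, 29.2 to 98.8 TPM with vindeburnol, 35.7 to 153.8 TPM with VB-127 and 47.5 to 118 TPM in controls, came mostly from Th, which dopaminergic neurons share. Slc6a3 and Tph2, of dopaminergic and serotonergic neurons, ran from 1.04 to 124 TPM and from 1.08 to 129 TPM. Vindeburnol replicate 3 stood apart in cerebellar markers, with Pcp2 at 20.3 TPM, Gabra6 at 2.38 TPM and Cbln3 at 3.78 TPM, against at most 4.88, 0.310 and 1.09 TPM elsewhere. Where a member's log2 difference printed below moved by over 1.5 times without these 3 libraries, the altered value is given too. The 10 neuronal markers summed to between 3023 and 4729 TPM in every library, and the part of tissue make-up in the results below was not tested. In bulk tissue, fewer cells of a type and less RNA per cell cannot be told apart. A single short neuronal RNA, Bc1, took 16.1% to 35.3% of a library's TPM total, which scales every other gene's TPM in that library.

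The upstream sequence of the nuclear genes is shown for members that the results below turn on, as the 250 bases before the transcription start in RefSeq's GRCm38.p6 annotation. Cox8a and Cox6b1 are the broadly used genes for 2 small complex IV subunits, and Cox8b and Cox6b2 are their tissue-restricted paralogs. Cox6a1, which held 2 kinds of searched motif, is shown for comparison. Sequences run 5′ to 3′ on the gene's strand, and capitals mark matches to the motifs searched. Cox8a lies at chr19:7217617-7217866, minus strand, Cox8b at chr7:140900447-140900696, minus strand, Cox6b1 at chr7:30626115-30626364, minus strand, Cox6b2 at chr7:4753095-4753344, minus strand, and Cox6a1 at chr5:115348959-115349208, minus strand.
Cox8a: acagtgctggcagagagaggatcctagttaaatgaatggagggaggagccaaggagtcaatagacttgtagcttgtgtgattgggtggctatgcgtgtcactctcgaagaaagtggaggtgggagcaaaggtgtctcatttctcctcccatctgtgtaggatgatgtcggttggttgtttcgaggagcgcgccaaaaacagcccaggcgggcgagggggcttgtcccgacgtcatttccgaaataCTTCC
Cox8b: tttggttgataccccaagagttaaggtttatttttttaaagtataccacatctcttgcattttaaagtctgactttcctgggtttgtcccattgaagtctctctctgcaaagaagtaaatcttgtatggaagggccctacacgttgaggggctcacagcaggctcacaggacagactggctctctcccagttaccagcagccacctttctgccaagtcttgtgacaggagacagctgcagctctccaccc
Cox6b1: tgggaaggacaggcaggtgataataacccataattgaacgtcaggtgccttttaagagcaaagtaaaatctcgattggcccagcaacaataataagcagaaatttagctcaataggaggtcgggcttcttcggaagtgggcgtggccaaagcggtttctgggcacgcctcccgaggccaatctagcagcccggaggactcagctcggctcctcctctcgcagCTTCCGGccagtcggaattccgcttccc
Cox6b2: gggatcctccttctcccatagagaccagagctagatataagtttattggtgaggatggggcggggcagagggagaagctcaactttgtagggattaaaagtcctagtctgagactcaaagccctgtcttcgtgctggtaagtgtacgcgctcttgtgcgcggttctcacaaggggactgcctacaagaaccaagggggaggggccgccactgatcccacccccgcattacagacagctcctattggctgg
Cox6a1: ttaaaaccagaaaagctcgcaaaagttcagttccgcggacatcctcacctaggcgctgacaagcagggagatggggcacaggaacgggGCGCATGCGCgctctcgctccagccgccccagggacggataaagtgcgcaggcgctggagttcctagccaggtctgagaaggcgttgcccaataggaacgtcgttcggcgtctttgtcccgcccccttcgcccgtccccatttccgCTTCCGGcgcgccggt
The letters searched on both strands were GCATGCGC (NRF1, a nuclear activator of respiratory genes), CCGGAAG (the ETS family, which includes GABP) and AANATGGCG (YY1). In Cox8a the capitals are the first bases of an ETS match at position -5 that runs past the start, Cox6b1 held an ETS match at -28, and Cox6a1 held one at -16 and overlapping NRF1 matches on opposite strands at -162 and -160. Neither Cox8b nor Cox6b2 held any of these letters. The same was true of Cox7a2 and its muscle paralog Cox7a1, and of the abundant Cox5a, Cox5b, Cox7b and Cox7c, which are not printed. Lack of the letters thus did not set the restricted paralogs apart. The CG dinucleotides in the printed bases numbered 11 in Cox8a and 1 in Cox8b, 14 in Cox6b1 and 8 in Cox6b2, and 26 in Cox6a1. Their median was 14 over the promoters of the members (range 1 to 35) and 6 over all 32851 promoters in the table.

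Over the window of 250 bases before to 50 after the start, 69 members had a promoter in the table. At least 1 of the motifs was held by 30 of these 69 (43.5%) and by 3882 of all 27025 genes (14.4%). The NRF1 letters were found in 14.5% of the members and 3.05% of all genes, the ETS letters in 23.2% and 9.93%, and the YY1 letters in 14.5% and 2.76%. Each of the motifs contains a CG dinucleotide, and the shares are not matched for CG content. That content was higher in the members, with the medians of 14 and 6 given above. These shares describe letters in a window and do not show binding.

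The members were among the most abundant transcripts of the tissue. Their mean level over all libraries had a median of 269 TPM, at the 97.4th percentile of tested genes, against a median of 10.8 TPM for all tested genes. A mean of at least 100 TPM was reached by 77 of the 87 members (88.5%) and by 7.47% of all tested genes. By complex, the median level was 219.7 TPM for complex I, 190.3 TPM for complex II, 322 TPM for complex III, 321 TPM for complex IV and 485 TPM for complex V. TPM is corrected for transcript length, which matters here because the coding transcripts of the members were short, with a median of 651 bases against 2214 bases for all tested genes. Of the members with a matched length, 77.1% were under 1000 bases, against 17.8% of the tested genes.

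**Figure D1:**
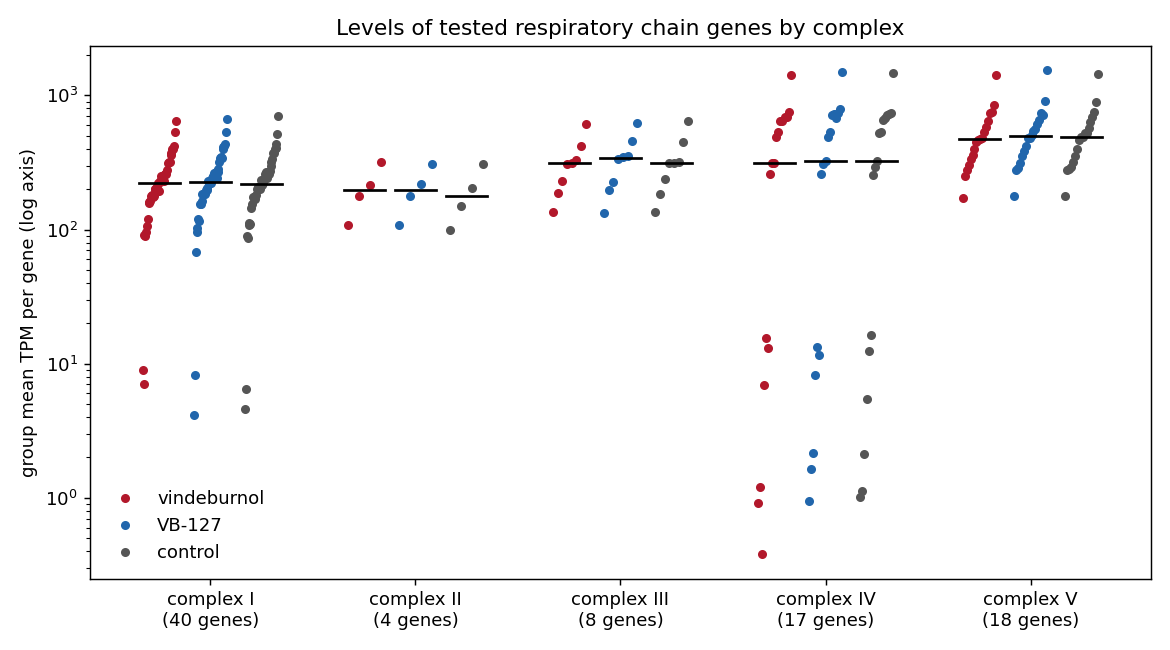
Mean TPM of each tested member (points, log axis) by complex, for vindeburnol (red, left), VB-127 (blue, middle) and control (grey, right), with black lines for the median gene. The group columns of a complex lie at like heights, and 8 members of complexes I and IV sit apart below 20 TPM.

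Together the 93 members made up between 2.71% and 3.23% of the TPM total of a library. Their summed TPM averaged 29121 ± 1738 with vindeburnol (SD, n = 5), 30300 ± 831 with VB-127 (SD, n = 6) and 29487 ± 1865 in controls (SD, n = 6). The lowest library was vindeburnol replicate 3, at 27068 TPM, and the highest was control replicate 5, at 32286 TPM, so the controls alone spanned most of the range. Control replicate 5 also had the highest sum of cytosolic ribosomal protein genes, 58935 TPM, against 45905 to 53491 TPM in the other controls. The 13 mitochondrially encoded messages, for comparison, made up 7.41% to 13.4% of the total, and their sum varied more, at 97193 ± 14274 TPM with vindeburnol, 98589 ± 13672 TPM with VB-127 and 101890 ± 22002 TPM in controls (SD, n = 5, 6 and 6).

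No complex set the groups apart by its sum. Complex I summed to 9490 ± 459 TPM with vindeburnol, 9755 ± 292 TPM with VB-127 and 9603 ± 665 TPM in controls (SD, n = 5, 6 and 6). Complex II, the smallest, summed to 821 ± 54.6 TPM with vindeburnol, 814 ± 27.2 TPM with VB-127 and 761 ± 51.4 TPM in controls. Complex III summed to 2532 ± 186 TPM, 2678 ± 93.1 TPM and 2593 ± 154 TPM in the same order. For complex IV the sums were 6793 ± 513 TPM with vindeburnol, 7105 ± 218 TPM with VB-127 and 6955 ± 496 TPM in controls, and for complex V they were 9485 ± 632 TPM, 9950 ± 284 TPM and 9575 ± 559 TPM. In each of the 5 complexes the 3 groups overlapped.

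**Figure D2:**
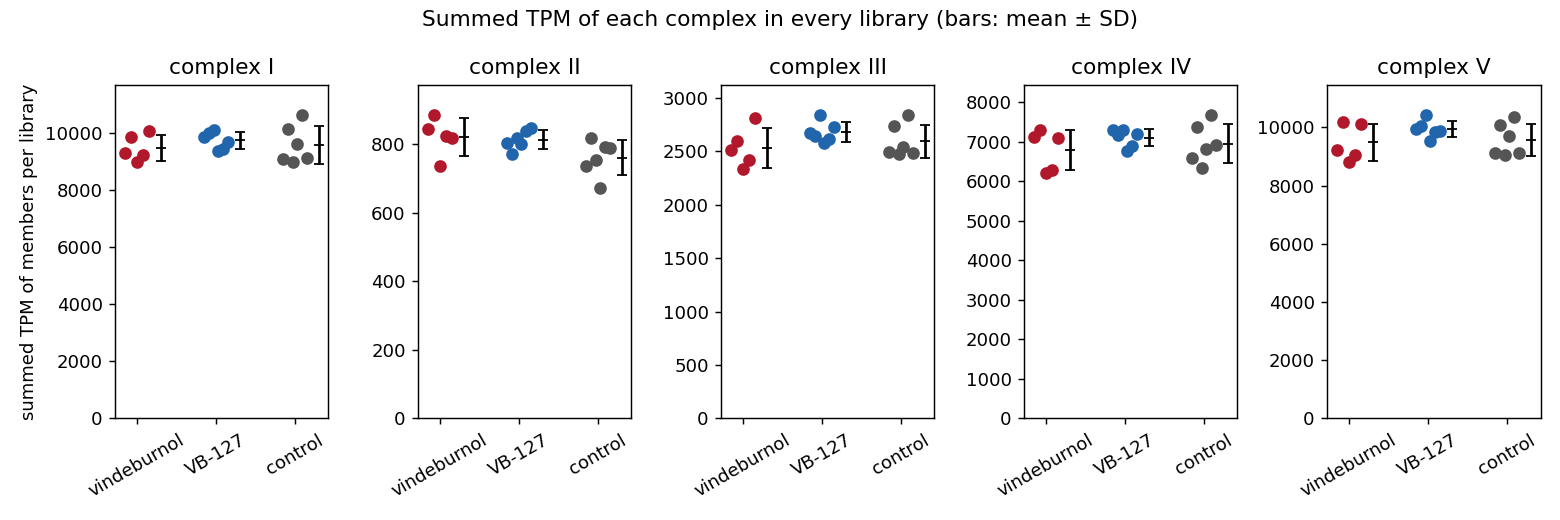
Summed TPM of the members of each complex in every library (points), with vindeburnol left, VB-127 in the middle and control right, and bars for the mean ± SD. The groups overlap in every panel, and the 6 VB-127 libraries lie closer together than the controls, 9391 to 10118 TPM against 8993 to 10635 TPM for complex I.

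Within complex II the order of the subunit genes was fixed. Sdha, the flavoprotein that oxidises succinate, lay above Sdhb, the iron-sulfur subunit, which lay above the membrane anchor genes Sdhc and Sdhd in 17 of 17 libraries, with means of 312, 212, 168 and 105 TPM. The ratio of Sdha to Sdhd ran between 2.52 and 3.33. In complex V, Atp5f1b, the catalytic beta subunit, was the most abundant member of all at 1474 TPM. It exceeded Atp5f1a, the alpha subunit, by a factor of 1.94 ± 0.146 with vindeburnol, 2.09 ± 0.145 with VB-127 and 2.10 ± 0.179 in controls (SD, n = 5, 6 and 6), and Atp5f1c, of the central stalk, by factors between 4.08 and 5.59. Over all libraries the ratio of Atp5f1b to Atp5f1a ran between 1.75 and 2.37. The lowest member of complex V was Atp5mc2, at 176 TPM, a gene for the membrane ring. In complex III, Uqcrh, the hinge protein, was highest at 626 TPM and Uqcrfs1, the Rieske iron-sulfur protein, lowest at 134 TPM. Complex I ran from Ndufa4 at 673 TPM to Ndufb4b at 5.69 TPM, and complex IV from Cox4i1, at 1471 TPM, to Cox6c2, at 0.960 TPM. Ndufa4 carries a complex I name but is assigned to complex IV in current biochemistry, and it is counted here by its name.

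The members varied little between libraries of a group. The within-group SD on the log2(TPM + 1) scale had a median of 0.122 over the members, against 0.261 over all tested genes and 0.110 for cytosolic ribosomal protein genes. It was 0.118 for complex I, 0.114 for complex II, 0.135 for complex III, 0.164 for complex IV and 0.109 for complex V. Uqcrc1, a core subunit of complex III, had the smallest SD, 0.065, and Ndufb4b the largest, 1.17. Spread is larger at low levels, and the members are abundant, so these medians are not matched for level.

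Vindeburnol was compared with untreated controls. No member passed the threshold of an adjusted p under 0.05 in limma, with the adjustment over all tested genes, and neither did any other gene (background 0%). At an unadjusted p under 0.05, 1 member of 87 was higher and 3 were lower, against 6.95% and 1.22% of all tested genes. The lower members numbered 6 with median-ratio scaling, 10 with quantile scaling and 8 without Bc1 and the mitochondrially encoded genes, and the higher ones 3 without vindeburnol replicate 3 and 5 without control replicate 5. These altered counts are not set against the share of all tested genes under the same setting, and the shares above do not apply to them. All tested genes shifted too: of those at an unadjusted p under 0.05, 85.1% were higher as deposited. That part was 51.9%, 47.7% and 52.9% under the same scalings, in that order. The median log2 difference was 0.002 for the members and 0.08 for all tested genes, and the members' median turned to -0.08 when libraries were scaled by median ratios, where that of all genes was 0.003. It was -0.04 without control replicates 1 and 6 and 0.03 without vindeburnol replicate 3. Set against the median of all tested genes, the members lay at -0.08 as deposited and at -0.08 with that scaling. The control libraries' own medians over the members had an SD of 0.081 on the log2 scale. Cytosolic ribosomal protein genes, which are abundant too, had a median difference of -0.006 as deposited and -0.09 with that scaling. By complex the medians were 0.01 for complex I, 0.11 for complex II, -0.01 for complex III, -0.03 for complex IV and -0.01 for complex V, and that of complex I changed sign to -0.07 under median-ratio scaling.

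VB-127 was compared with the same controls. Again no member was called, against 1 gene of 16153 (background 0.00619%). At an unadjusted p under 0.05, 7 members were higher and 3 lower, against 9.67% and 0.532% of all tested genes. The count of 7 moved with single libraries and with the scaling: it was 22 without control replicate 5, 13 without control replicate 2, 4 without control replicate 1, without controls 1 and 6 or without VB-127 replicate 3, and 1 with median-ratio scaling, where 7 members were lower. Here too the altered counts have no share of all tested genes under the same setting beside them. Of all tested genes at an unadjusted p under 0.05, 94.8% were higher as deposited and 53.1% with median-ratio scaling. The median log2 difference was 0.06 for the members, against 0.11 for all tested genes, and it turned to -0.07 with median-ratio scaling, against 0.009 for all tested genes. It was 0.01 without control replicates 1 and 6. Relative to all tested genes the members' median was thus -0.06 as deposited and -0.07 after that scaling, and the ribosomal protein genes had medians of 0.03 and -0.09. The medians by complex were 0.05 (I), 0.12 (II), 0.06 (III), 0.04 (IV) and 0.06 (V), and all 5 were negative with median-ratio scaling, between -0.07 and -0.003.

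The compounds were compared with each other at their one matched dose and time, a single pair. No member and no other gene was called (background 0%). At an unadjusted p under 0.05, 1 member was higher with vindeburnol and 6 were lower, against 0.891% and 2.49% of all tested genes. The 6 lower members became 1 with median-ratio scaling, 12 without vindeburnol replicate 2, 11 without replicate 5, 2 without replicate 3 or 4 and 3 without VB-127 replicate 3. Again these are not set against all tested genes under the same setting. Of all tested genes at that level, 26.4% were higher with vindeburnol as deposited and 44% with median-ratio scaling. The median log2 difference, vindeburnol minus VB-127, was -0.04 for the members and -0.03 for all tested genes. It was -0.04 in complex I, -0.004 in complex II, -0.08 in complex III and -0.07 in complexes IV and V, and that of complex II was 0.03 with median-ratio scaling. In TPM as deposited, the unadjusted 95% interval of the difference lay within 1.25-fold in either direction for 73 of the 87 members (83.9%), against 25.1% of all tested genes. The share was 94.0% for cytosolic ribosomal protein genes and 100% for 16 glycolysis genes.

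These narrow intervals held in the other comparisons too. Within 1.25-fold lay the intervals of 70 members (80.5%) for vindeburnol and 75 members (86.2%) for VB-127, each against controls, where the shares of all tested genes were 18.1% and 19.1%. Those of cytosolic ribosomal protein genes were 92.8% and 95.2%, and those of glycolysis genes 68.75% in each. None of these shares is matched for level. Within 1.5-fold lay 79, 80 and 79 members in the comparisons of vindeburnol with control, VB-127 with control and vindeburnol with VB-127. The members whose interval reached past 1.5-fold were among the low paralogs Cox4i2, Cox6a2, Cox6b2, Cox6c2, Cox7a1, Cox8b and Ndufa4l2 and the near-copies Ndufb4b and Ndufb4c. Among the remaining members a difference beyond 1.5-fold thus lay outside the unadjusted interval in each comparison, in TPM as deposited. The intervals do not cover the shift in the differences from controls that another scaling of libraries brings.

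**Figure D3:**
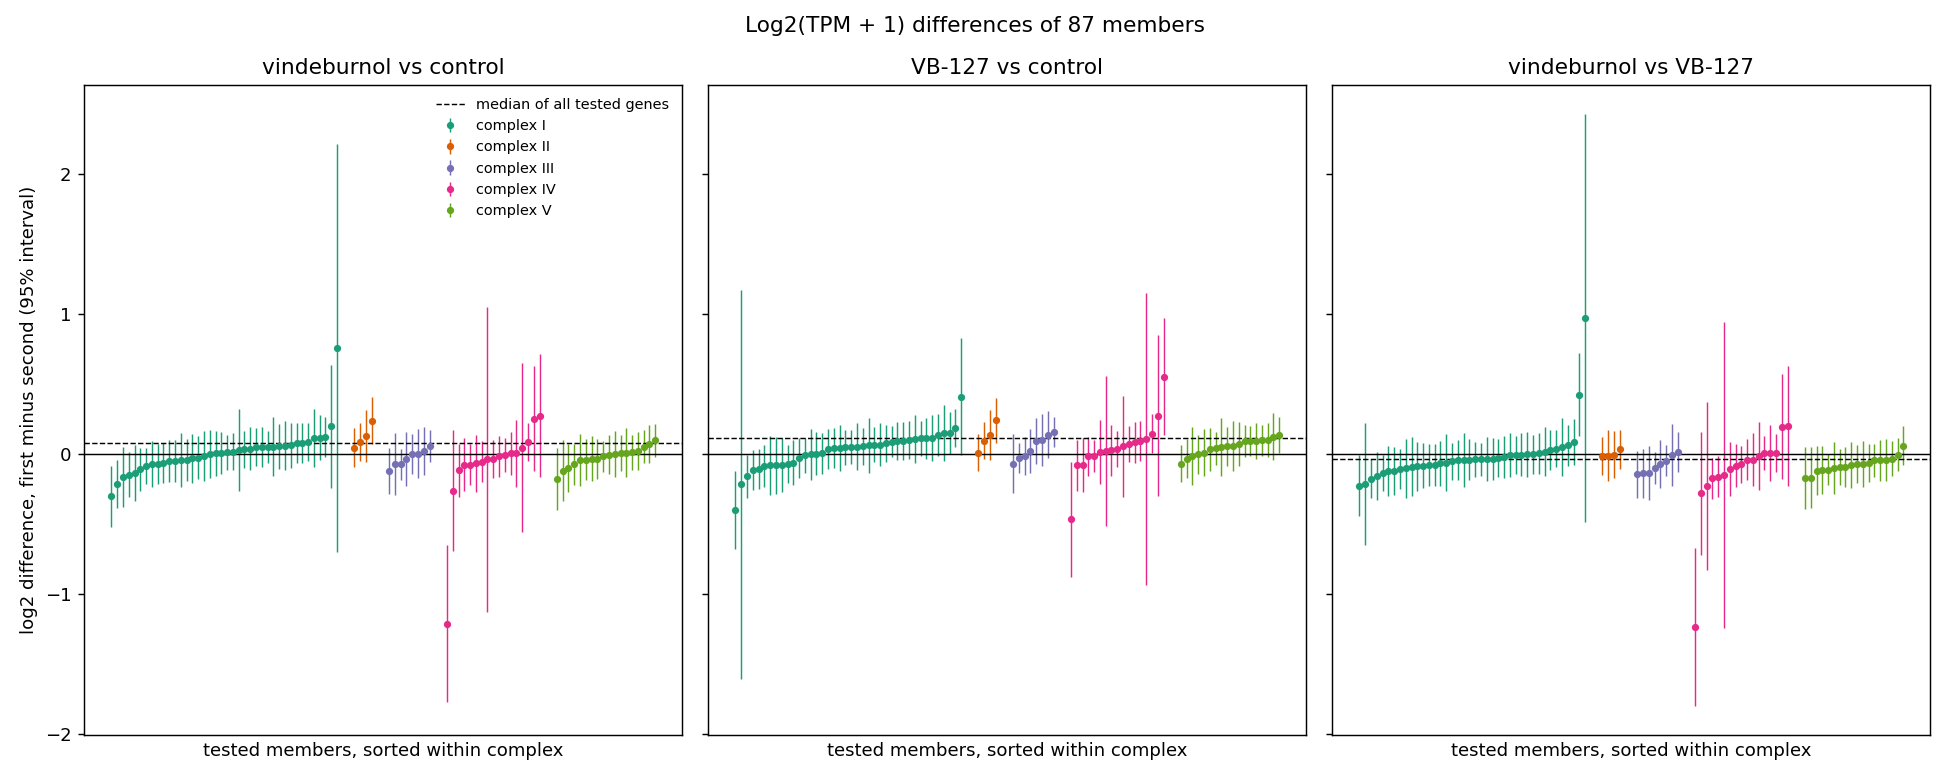
Log2(TPM + 1) difference of each tested member (points, 95% interval as bars), first group minus second, sorted within complex, with the median of all tested genes as a dashed line. Most members sit near 0, and Cox8b, at -1.21 and -1.23 in both vindeburnol panels, sits lowest; the sign of the members' median against controls changes with the scaling of libraries.

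In TPM as deposited, the groups did not overlap for 1 member. Sdhc, which encodes a membrane anchor of complex II and helps bind ubiquinone, was at 172, 176 and 189 TPM (lowest, median and highest) with VB-127 and at 126, 155 and 163 TPM in controls. All 6 VB-127 libraries lay above the highest control, the only case among 87 members with VB-127 higher, against 0.656% of all tested genes, and no member lay wholly lower, against 0.0124%. With median-ratio scaling the VB-127 and control libraries overlapped in Sdhc. The means were 178 ± 6.86 TPM with VB-127 and 151 ± 14.8 TPM in controls (SD, n = 6 each), a log2 difference of 0.24 (SE 0.08, limma adjusted p 0.461), which did not pass the threshold and was 0.12 with median-ratio scaling. With vindeburnol Sdhc was at 175, 199.9, 149, 178.5 and 189.5 TPM, and replicate 3, at 149 TPM, lay among the controls. The log2 difference for vindeburnol was also 0.24 (SE 0.08, limma adjusted p 0.507), with 0.16 under median-ratio scaling and 0.30 without vindeburnol replicate 3. It was 0.25 for each compound without control replicates 1 and 6. No member separated vindeburnol from controls (background 0.458% higher and 0.0619% lower) or from VB-127 (0.105% higher and 0.285% lower). Sdhd, the other anchor, was at 108 ± 14.0 TPM with vindeburnol, 108 ± 7.65 TPM with VB-127 and 98.5 ± 9.74 TPM in controls (SD, n = 5, 6 and 6), and the groups overlapped.

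In complex I the named members of the comparison of vindeburnol with controls were accessory subunits. Ndufc1, a small accessory subunit, was at 165, 220.2, 149.6, 184 and 250.2 TPM with vindeburnol, against 217.5, 229.8 and 255 TPM (lowest, median and highest) in controls. Replicates 1, 3 and 4 lay below every control and replicates 2 and 5 lay among them, with a log2 difference of -0.30 (SE 0.11, limma adjusted p 0.514). Ndufa1, an accessory subunit needed for assembly of the complex, was at 208, 255, 235, 212 and 238 TPM with vindeburnol and at 236, 269 and 302 TPM in controls. All 5 vindeburnol libraries lay below the control mean of 266 TPM and the groups overlapped (log2 difference -0.21, SE 0.08, limma adjusted p 0.537). Ndufa4 averaged 642.5 ± 92.0 TPM with vindeburnol and 706 ± 44.5 TPM in controls (SD, n = 5 and 6; log2 difference -0.14). On the higher side, Ndufa13, also known as GRIM-19, averaged 158 ± 4.13 TPM with vindeburnol and 145 ± 13.6 TPM in controls, and Ndufa7 averaged 261 ± 22.6 TPM and 241 ± 25.3 TPM, with log2 differences of 0.12 each (limma adjusted p 0.630 and 0.688). With median-ratio scaling these were 0.04 and 0.03, while Ndufa4 moved to -0.23, and without vindeburnol replicate 3 Ndufa4 was at -0.08. Ndufa13 was at 0.08 without control replicates 1 and 6.

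With VB-127, Ndufs8, a core iron-sulfur subunit of complex I, was at 216, 229.6 and 241 TPM (lowest, median and highest), against 183, 197 and 231 TPM in controls. All 6 VB-127 libraries exceeded the control mean of 201 TPM, and the ranges overlapped (log2 difference 0.19, SE 0.07, limma adjusted p 0.461). That difference was 0.07 with median-ratio scaling. Ndufc2, the partner of Ndufc1, averaged 242 ± 9.33 TPM with VB-127 and 269.9 ± 19.2 TPM in controls, and Ndufs5 averaged 341 ± 11.7 TPM and 371 ± 41.3 TPM (SD, n = 6 each), with log2 differences of -0.16 and -0.11. Ndufb3 averaged 163 ± 13.0 TPM with VB-127 and 175 ± 11.2 TPM in controls (log2 difference -0.10). With median-ratio scaling these 3 differences were -0.28, -0.23 and -0.23. The log2 difference of Ndufc2, vindeburnol minus VB-127, was 0.09, and 0.14 without vindeburnol replicate 3. Between the compounds, Ndufv2, a core subunit of the NADH-binding arm, averaged 319 ± 18.6 TPM with vindeburnol and 349.6 ± 17.6 TPM with VB-127 (log2 difference -0.13, SE 0.06, limma adjusted p 1.000).

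Ndufb4, an accessory subunit of the membrane arm, has near-identical copies in the files, Ndufb4b and Ndufb4c, between which reads could be split. Ndufb4c was at 49.8, 70.5 and 82.5 TPM (lowest, median and highest) with VB-127 and at 75.4, 89.2 and 100.3 TPM in controls. Its VB-127 libraries all lay below the control mean of 88.8 TPM and the ranges overlapped (log2 difference -0.40, SE 0.13, limma adjusted p 0.461). With vindeburnol it was at 88.6, 110.5, 70.8, 85.7 and 99.6 TPM, and the log2 difference from VB-127 was 0.43 (SE 0.14, limma adjusted p 1.000). Ndufb4 itself went the other way between the compounds, at 106 ± 3.03 TPM with vindeburnol and 120.0 ± 7.22 TPM with VB-127 (log2 difference -0.17). Ndufb4b ran from 1.61 to 22.0 TPM with vindeburnol and from 0 to 8.54 TPM with VB-127. The sum of the 3 genes averaged 206 ± 15.4 TPM with vindeburnol, 192 ± 12.1 TPM with VB-127 and 205 ± 20.3 TPM in controls (SD, n = 5, 6 and 6), and the groups overlapped.

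In complex III, Uqcrc1 was at 345, 354 and 365 TPM (lowest, median and highest) with VB-127 and at 296, 314 and 351 TPM in controls. Only the highest control, replicate 5, reached into the VB-127 range. The log2 difference was 0.16 (SE 0.05, limma adjusted p 0.461), and it was 0.04 with median-ratio scaling. With vindeburnol Uqcrc1 was at 314, 349, 321, 342 and 331 TPM, with a mean of 331 TPM between those of the other groups. In complex V, Atp5f1d, the delta subunit of the central stalk, averaged 353 ± 18.7 TPM with VB-127 and 321 ± 28.8 TPM in controls (SD, n = 6 each; log2 difference 0.14, SE 0.06, limma adjusted p 0.479), and the groups overlapped. Atp5f1a, the alpha subunit, averaged 739 ± 39.8 TPM with vindeburnol and 689.8 ± 50.8 TPM in controls, and Atp5pf, a peripheral stalk subunit, 249 ± 44.0 TPM and 279 ± 31.5 TPM (SD, n = 5 and 6), with log2 differences of 0.10 and -0.18 and limma adjusted p values of 0.637 and 0.667. With median-ratio scaling the difference was 0.02 for Atp5f1d and 0.01 for Atp5f1a. Atp5f1d was at 0.09 without control replicates 1 and 6.

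**Figure D4:**
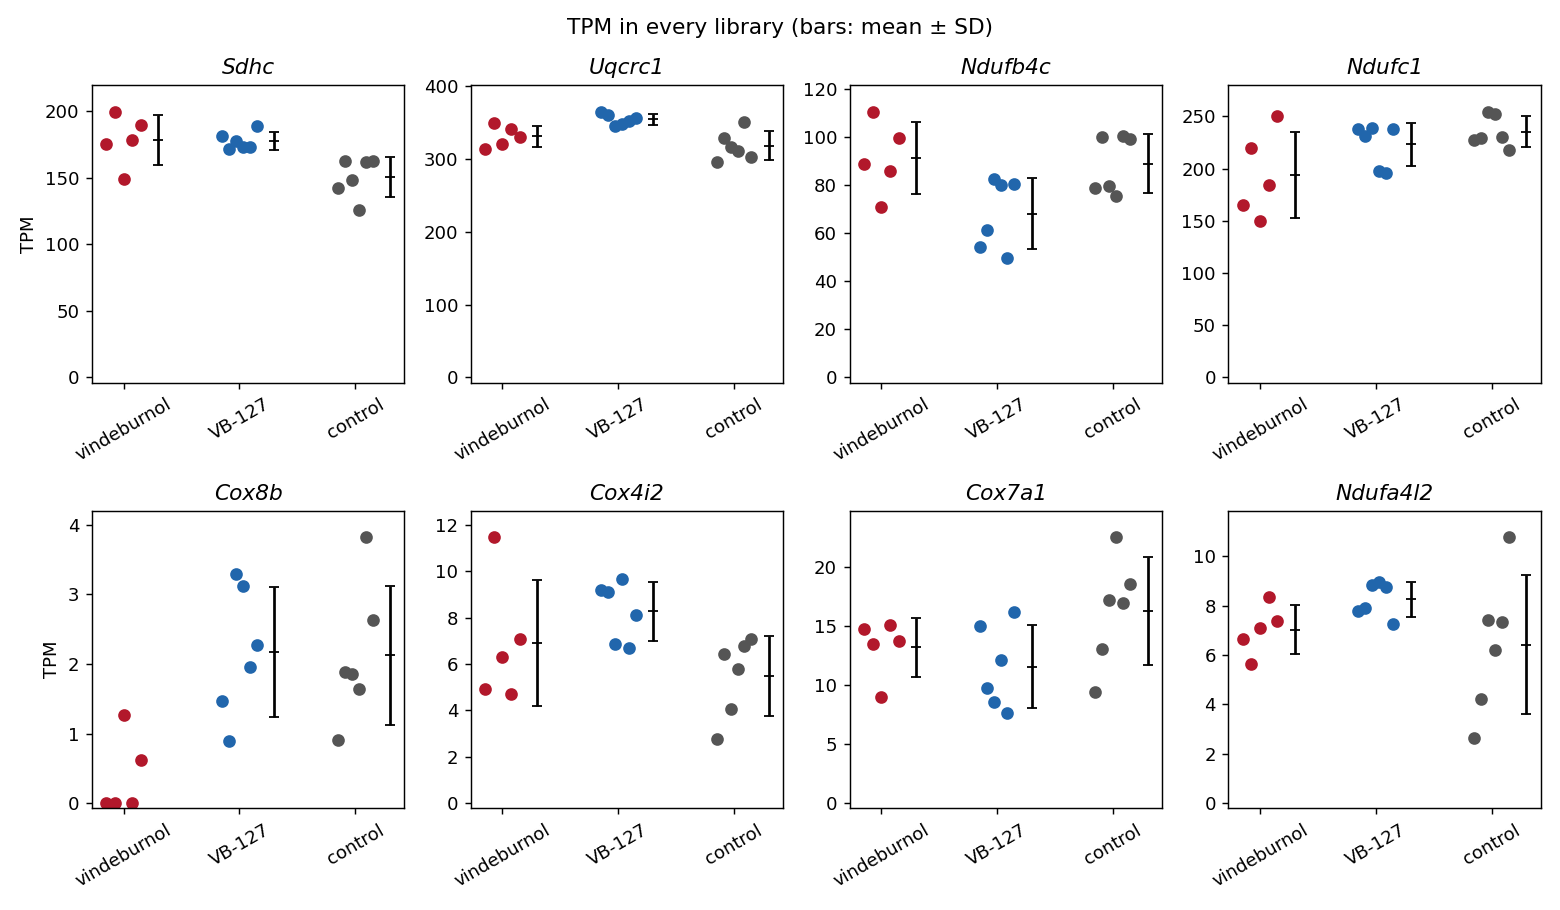
TPM in every library (points) of 8 members, with vindeburnol left, VB-127 in the middle and control right, and bars for the mean ± SD where no library is listed at 0. Sdhc is the member whose VB-127 libraries, from 172 TPM up, all lie above the controls, up to 163 TPM; in Cox8b 3 of 5 vindeburnol libraries are listed at 0.

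Complex IV held the widest spread of the members' differences. Cox8b is the paralog of Cox8a that is used in heart, skeletal muscle and brown fat of the mouse. It was listed at 0 TPM in vindeburnol replicates 1, 2 and 4 and at 1.27 and 0.622 TPM in replicates 3 and 5. With VB-127 it was at 0.888, 2.11 and 3.29 TPM (lowest, median and highest), and in controls at 0.910, 1.87 and 3.82 TPM. Vindeburnol replicate 3 lay within the ranges of both other groups and the other 4 vindeburnol libraries lay below every one of their libraries. The log2(TPM + 1) difference was -1.21 against controls (SE 0.27, unadjusted p 0.000227, limma adjusted p 0.352) and -1.23 against VB-127 (SE 0.27, unadjusted p 0.000187, limma adjusted p 0.802). With a pseudocount of 0.1 in place of 1 the differences were -3.03 and -3.06, so their size depended on that choice, and neither passed the threshold under any alternative. The promoter of this gene, shown above, held 1 CG dinucleotide and none of the searched motifs, and Cox8a had 718 TPM on average. Whether promoter letters bear on the level of either gene was not tested.

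Muscle and brown fat markers were measured beside Cox8b. Of 14 muscle markers, 8 were under 1 TPM in every library, and the list summed to 18.7 to 22.0 TPM with vindeburnol, 16.9 to 25.2 TPM with VB-127 and 12.3 to 27.1 TPM in controls. The 5 brown adipocyte markers summed to 7.55 to 11.4 TPM with vindeburnol, 4.41 to 7.27 TPM with VB-127 and 5.85 to 10.3 TPM in controls, nearly all of it from Cidea, at 4.08 to 10.9 TPM. The other 4 were under 1 TPM in every library, and Ucp1, the uncoupling protein that defines brown fat, did not exceed 0.207 TPM. The part of either list in the level of Cox8b was not tested. Myh7 and Tnnt2, which made up much of the muscle sum, had medians of 9.63 and 4.87 TPM. The medians of the muscle sum were 19.8 TPM with vindeburnol, 18.8 TPM with VB-127 and 19.0 TPM in controls.

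Cox4i2, the paralog of Cox4i1 found in lung and in cells of the vessel wall, was at 6.69, 8.60 and 9.67 TPM (lowest, median and highest) with VB-127 and at 2.75, 6.10 and 7.08 TPM in controls. All 6 VB-127 libraries lay above the control mean of 5.48 TPM and the ranges overlapped (log2 difference 0.56, SE 0.20, limma adjusted p 0.470). With vindeburnol it was at 4.935, 11.5, 6.29, 4.73 and 7.09 TPM. The summed level of 9 pericyte markers was 133 to 152 TPM with vindeburnol, 155 to 202 TPM with VB-127 and 81.4 to 174 TPM in controls, and its part in the level of Cox4i2 was not tested. Ndufa4l2, a relative of Ndufa4 also known from vessel wall cells, averaged 7.03 ± 0.990 TPM with vindeburnol, 8.26 ± 0.700 TPM with VB-127 and 6.42 ± 2.83 TPM in controls (SD, n = 5, 6 and 6).

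Cox7a1, the muscle paralog of Cox7a2, was at 7.67, 10.9 and 16.2 TPM (lowest, median and highest) with VB-127 and at 9.40, 17.1 and 22.5 TPM in controls. No VB-127 library lay above the control mean of 16.3 TPM, and the ranges overlapped (log2 difference -0.46, SE 0.20, limma adjusted p 0.470). With vindeburnol it was at 14.7, 13.4, 8.95, 15.1 and 13.7 TPM. The log2 difference of Cox7a1, vindeburnol minus VB-127, was 0.20, and 0.33 without vindeburnol replicate 3. Among the abundant genes, Cox5b averaged 645 ± 44.1 TPM with vindeburnol and 725.5 ± 35.0 TPM with VB-127, and Cox6b1 averaged 646 ± 61.5 TPM and 720.0 ± 31.1 TPM (SD, n = 5 and 6). All 5 vindeburnol libraries lay below the VB-127 mean for both genes, with overlapping ranges and log2 differences of -0.17 and -0.16 (limma adjusted p 1.000 each). Without vindeburnol replicate 3 the difference in Cox6b1 was -0.10. Cox6b2, the testis paralog of Cox6b1, was at 15.6 ± 4.75 TPM with vindeburnol and 13.2 ± 3.19 TPM with VB-127 (log2 difference 0.20, and 0.35 without vindeburnol replicate 3). The lowest tested member, Cox6c2, was listed at 0 in 10 of 17 libraries and reached 4.36 TPM.

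The share of each paralog in the sum with its partner was compared as well, since a share does not depend on how libraries are scaled. The 8 shares were tested in the 3 comparisons with two-sided exact permutation tests, adjusted over the 24 tests, and none passed. The Cox4i2 share of Cox4i1 plus Cox4i2 was 0.547% ± 0.0841 with VB-127 and 0.367% ± 0.101 in controls (SD, n = 6 each, exact p 0.00649, adjusted p 0.121). The Cox8b share of Cox8a plus Cox8b lay between 0 and 0.215% with vindeburnol and averaged 0.293% ± 0.126 with VB-127 (SD, n = 6) and 0.294% ± 0.129 in controls (SD, n = 6), for exact p values of 0.0108 against controls and 0.0152 against VB-127 (n = 5 and 6, adjusted p 0.121 each). The smallest p these exact tests can give is 0.00216. The Cox7a1 share was 4.02% ± 0.657 with vindeburnol, 3.48% ± 1.08 with VB-127 and 4.80% ± 1.41 in controls, that of Cox6b2 2.32% ± 0.575, 1.80% ± 0.392 and 1.88% ± 0.226, and that of Cox6a2, a muscle paralog, 0.160% ± 0.0937, 0.203% ± 0.122 and 0.155% ± 0.0923 (SD, n = 5, 6 and 6 in each).

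Atp5mc1, Atp5mc2 and Atp5mc3 encode the same mature c subunit of the complex V ring with different import sequences. Atp5mc3 supplied 58.6% ± 1.74 of their summed TPM with vindeburnol, 56.1% ± 2.72 with VB-127 and 58.7% ± 1.71 in controls (SD, n = 5, 6 and 6). Atp5mc1 supplied 27.8% ± 2.31, 30.1% ± 1.73 and 27.5% ± 1.41 in the same order. The Atp5mc1 share differed between VB-127 and control with an exact p of 0.0260 (n = 6 each, adjusted p 0.156), which did not pass. The order Atp5mc3, Atp5mc1, Atp5mc2 thus held for the group means in all 3 groups.

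The 6 members that were not tested were low or silent. Ndufb11b, Cox8c and a second row named Atp5po were listed at 0 in all libraries, and Ndufa11b was above 0 in 1 library, at 0.677 TPM. Ndufs6b did not exceed 1.78 TPM and Cox7b2 did not exceed 0.953 TPM. The pseudogene rows left out by name added between 10.3 and 23.5 TPM per library, and reads could be split between such copies and their parent genes.

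**Figure D5:**
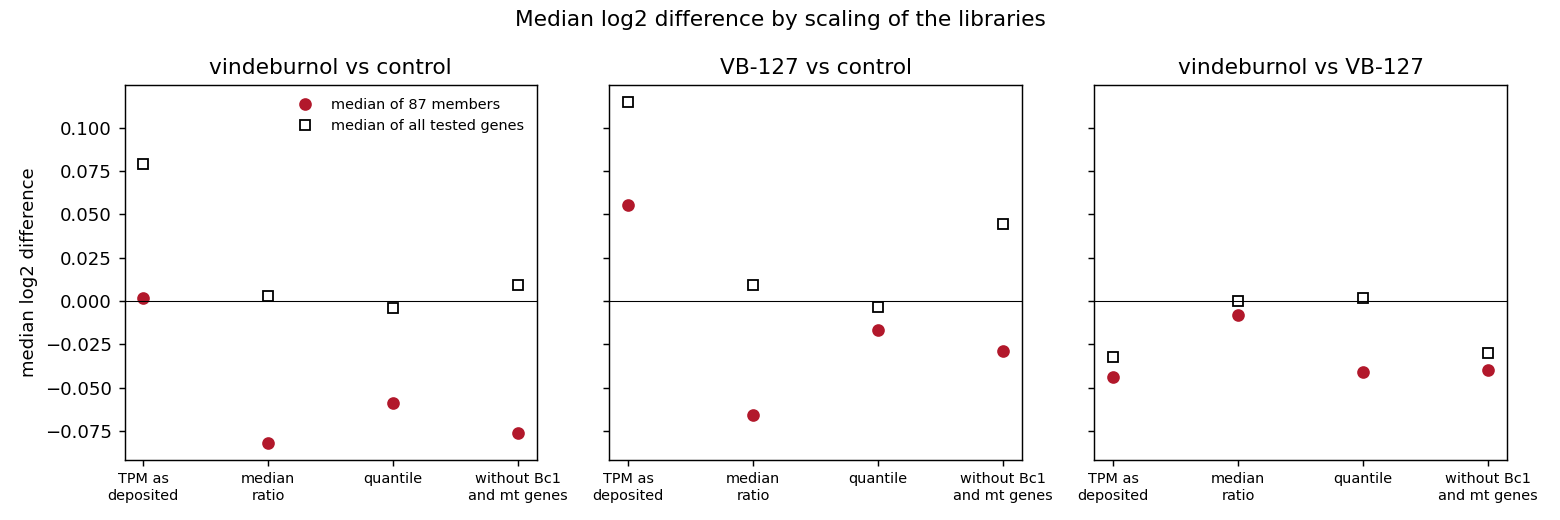
Median log2 difference of the 87 members (filled circles) and of all tested genes (open squares) in each comparison, with TPM as deposited and under 3 other ways of scaling the libraries. The members' median lies below that of all tested genes in each of the 12 cases, by between -0.085 and -0.008, while its sign against controls changes with the scaling.

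Genes that act with the chain were counted from lists chosen with earlier results known, and none of their genes was called in any comparison. Over all tested genes, 6.95% were higher at an unadjusted p under 0.05 with vindeburnol and 9.67% with VB-127. The counts below in TPM as deposited are read against these shares, and counts under other settings have no such share beside them. Of 17 complex I assembly factors, 2 had an unadjusted p under 0.05 and were higher with VB-127 than in controls, Foxred1 at 26.8 ± 1.58 TPM against 22.1 ± 4.03 TPM (SD, n = 6 each) and Ecsit, a count that was 0 with median-ratio scaling. Among 26 complex IV assembly factors, Coa3 was at 136 ± 14.0 TPM with vindeburnol, 169 ± 8.99 TPM with VB-127 and 142 ± 18.7 TPM in controls (SD, n = 5, 6 and 6), the smallest p of its list both between the compounds (limma adjusted p 1.000) and, after Higd2a, for VB-127 against controls (0.461). Of 18 genes of electron carriers and electron entry, Pdss1 and Pdss2, which make the ubiquinone side chain, had an unadjusted p under 0.05 with VB-127, at log2 differences of 0.53 and 0.36 from controls (limma adjusted p 0.461 each). The median log2 difference from controls was 0.10 with vindeburnol and 0.12 with VB-127 for 16 glycolysis genes, and 0.03 and 0.09 for 16 citric acid cycle genes, against 0.08 and 0.11 for all tested genes. In the glycolysis list 5 genes with vindeburnol and 6 with VB-127 were higher at an unadjusted p under 0.05, led in both by Pfkl, a phosphofructokinase gene. Both counts were 0 with median-ratio scaling, which also took the list's medians to 0.01 and -0.002, and 2 without control replicates 1 and 6. Among 9 complex III assembly factors, 2 and 3 were higher at that level, Lyrm7 and Uqcc6 in both and Uqcc5 with VB-127, and 1 in each with median-ratio scaling. Of 14 transcription regulators of respiratory genes, 1 was higher at an unadjusted p under 0.05 with vindeburnol and 2 with VB-127, namely Pprc1 in both and Nrf1 in the second. Among the 13 mitochondrially encoded messages, mt-Nd3, a complex I subunit, had the smallest p, at 2918 ± 616 TPM with vindeburnol, 3358 ± 432 TPM with VB-127 and 4299 ± 787 TPM in controls (SD, n = 5, 6 and 6), with log2 differences from controls of -0.57 and -0.35 (limma adjusted p 0.425 and 0.470). The median over these 13 messages was -0.04 with vindeburnol and 0.01 with VB-127. It was -0.12 and -0.11 with median-ratio scaling, and 0.13 and 0.17 without control replicates 1 and 6.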

How the data were processed

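RNA-seq was available for 17 libraries of mouse brainstem tissue, grouped by the treatment in the labels. The values are TPM as deposited for 78298 genes per library. Reads were aligned with STAR and quantified with Salmon on GRCm39 (mm39), per the submitters' processing notes; the library kit kept strand, per the labels' protocols, and strand use in quantification is not stated there. TPM holds no read depth, so depth is unknown and no interval for counting error is given. Between 21016 and 26993 genes were above 0 in a library. A table of the whole series with the same values was not used here.

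Values were analysed as log2(TPM + 1), a pseudocount of 1, which understates the change of low genes. Genes with at least 1 TPM in at least 5 libraries were tested with limma 3.58.1 under R 4.3.3, with trended and robust moderation, group as the only term, all 17 libraries in 1 fit, in two-sided tests adjusted by Benjamini-Hochberg across all 16153 genes, and called below an adjusted p of 0.05. The procedure was tested on simulated data with 200 changed genes. Paralog shares were tested by two-sided exact permutation, adjusted over 24 tests. The members, the lists and the rules were chosen with earlier results of these data known. Named members were, per comparison, the 5 with the smallest p in each direction and those whose groups do not overlap, along with the highest and lowest member of each complex, the tissue-restricted paralogs and the Atp5mc genes. Genes outside the members were at most 4 per list, by smallest p. Alternatives covered the pseudocount (0.1), the filter, scaling, library weights, moderation, the groups in the fit, a replicate block and leaving out libraries.

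Replicate numbers are not said to mark a shared animal or batch and were not part of the fit. Symbols are those in the files. Promoters came from RefSeq on GRCm38.p6, which differs from the files' build, so they were matched by symbol or gene ID; transcript lengths came from GENCODE and were matched for 95.4% of tested members and 83.5% of tested genes.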

Additional observations from a re-analysis of the deposited data

Results flagged for a closer look

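In 114 sets of 1 named member's values in 1 group, 3 sets held a library far from the others, judged by its gap to the nearest value over the whole range. Chance alone flags about 1 set in 20. Cox7a1 was at 8.95 TPM in vindeburnol replicate 3, against 13.4 to 15.1 TPM in the other 4 vindeburnol libraries. Ndufa4 was at 789.8 TPM in control replicate 2, against 670.1 to 710.7 TPM in the other controls. Ndufb3 was at 153.7 TPM in control replicate 6, against 173 to 183 TPM in the other controls.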

How the results depend on the processing

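No member was called in any comparison under any alternative that was run. The sign of the log2 difference was followed only for the 5 members with the smallest p in each direction and those without overlap. None of these changed sign, though those of Atp5f1d (0.02) and Atp5f1a (0.01) came near 0 with median-ratio scaling. The members' median log2 difference from controls did with scaling: with median-ratio scaling it was -0.0818 for vindeburnol and -0.0658 for VB-127, without Bc1 and the mitochondrially encoded genes -0.0759 and -0.0289, and with quantile scaling -0.059 and -0.0169. The count of members with an unadjusted p under 0.05 moved most. The counts that follow are not set against all tested genes under the same setting. For VB-127 against controls the 7 higher members became 13 without control replicate 2, 22 without control replicate 5, 4 without control replicate 1, without controls 1 and 6 (the 2 libraries highest in Dbh), without VB-127 replicate 3 or with moderation without trend, 2 without Bc1 and the mitochondrially encoded genes and 1 with median-ratio or quantile scaling, while the 3 lower members became 6 or 7 with those scalings and 1 without VB-127 replicate 2, 3 or 5 or control replicate 4 or 5. For vindeburnol against controls the 3 lower members became 6 (median ratio), 10 (quantile), 8 (without Bc1 and mitochondrially encoded genes), 5 without vindeburnol replicate 2 and 6 without replicate 5, and the 1 higher member became 5 without control replicate 5. For vindeburnol against VB-127 the 6 lower members became 12 and 11 without vindeburnol replicates 2 and 5, 2 without replicate 3 or 4, 3 without VB-127 replicate 3, 1 with median-ratio scaling and 2 with moderation without trend. The cause was not tested. Leaving out a library, the difference in paralog share, in percentage points, crossed 0 for Cox8b between VB-127 and control (-0.0370 to 0.0392), and, between vindeburnol and control, for Atp5mc1 (-0.211 to 1.06), Atp5mc3 (-0.618 to 0.563) and Cox6a2 (-0.0219 to 0.0315). Same-numbered libraries correlated between -0.195 and 0.111 in their deviations from the group mean. A shared animal, day or batch need not raise that correlation, so whether the numbers pair the libraries stays unknown. With a replicate block 0 members were called, the members' medians were -0.005, 0.06 and -0.05 for vindeburnol against control, VB-127 against control and vindeburnol against VB-127, and the vindeburnol minus control difference in Cox6a2 share was -0.00177. The unknown depth limits what can be said of members near 1 TPM, such as Cox8b, Cox6a2 and Cox6c2.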
